A study of Mus musculus with 12 samples.

Results

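DN2-only DHSs are the DNase I hypersensitive sites (DHSs) that were called in every DN2a and DN2b library and in none of the LSK, DN1 or IgG libraries. They were chosen by peak calls: the peaks of the 12 libraries on chromosomes 1 to 19 and X were merged wherever they overlapped by at least 1 bp, and 1291 of the 170207 consensus DHSs (0.758%) had a peak in all 4 DN2 libraries and no peak in the other 8. Because the calls chose them, their presence in DN2 cells is the rule and not a result. The measures compared below were not used by the rule, but how high a site scores need not be independent of where it is called. DNase-seq locates open chromatin by sequencing the ends that DNase I cuts in intact nuclei, and each peak of 150 bp marks a place with many cuts.

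All cells were of C57BL/6J mice. The LSK libraries (n = 3) came from uncultured marrow cells lacking lineage markers and bearing SCA1 and KIT, a fraction that holds the stem and early progenitor cells. The other libraries came from LSK cells grown in serum with SCF, FLT3 ligand, IL-6 and IL-11, either on immobilized Delta1, a Notch ligand, or on human IgG without ligand (IgG, n = 3). From the Delta1 flasks, DN1 cells (KIT++ CD44+ CD25-, n = 2) were sorted without IL-7, whereas DN2a (KIT++ CD44+ CD25+, n = 2) and DN2b cells (KIT+ CD44lo CD25+, n = 2) were sorted after IL-7 was added. Stage and IL-7 therefore cannot be told apart in any contrast of DN2 with DN1 libraries. The libraries had between 32952 and 111582 peaks, the DN2 libraries between 57729 and 111582, and read depth was not used here.

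DN2 thymocyte precursors have received Notch signals, carry CD25 and lie before or at commitment to the T lineage. DN2a cells keep other fates within reach, and the passage to DN2b is where commitment is largely completed, with BCL11B among the factors it depends on. IL-7 acts through its receptor on STAT5, which binds paired TTC and GAA half-sites, while RUNX, TCF1 with LEF1, GATA3 and the E proteins are sequence-specific factors with known roles in early T cells.

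Sequence letters were among the measures in which DN2-only DHSs differed from other DHSs, and examples are shown first. The first set shows members that hold the STAT letters: those ranked high over the DN2 libraries near Nsg2, Serpinb9g and Cxcr4, and a site of Bcl2, a survival gene. Each is 150 bases around the midpoint of the DHS on the plus strand, read from the RefSeq sequence of GRCm38.p6. Capitals mark matches on either strand to TTCNNNGAA, the letters of STAT factors, to TGTGGT, those of RUNX factors, and to CTTTGA, those of TCF1 and LEF1. They also mark AGGAAG, the core of ETS factors, the E-boxes CAGCTG for E proteins and, for HEB and related factors, CACCTG, and finally the letters AGATAA of GATA factors.
Nsg2 site: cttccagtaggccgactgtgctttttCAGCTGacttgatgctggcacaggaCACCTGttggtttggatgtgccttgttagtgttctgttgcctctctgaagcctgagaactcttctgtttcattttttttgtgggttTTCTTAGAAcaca
Serpinb9g site: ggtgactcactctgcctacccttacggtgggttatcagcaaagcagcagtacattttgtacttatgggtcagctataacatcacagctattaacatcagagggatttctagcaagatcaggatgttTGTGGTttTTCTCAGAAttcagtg
Cxcr4 site: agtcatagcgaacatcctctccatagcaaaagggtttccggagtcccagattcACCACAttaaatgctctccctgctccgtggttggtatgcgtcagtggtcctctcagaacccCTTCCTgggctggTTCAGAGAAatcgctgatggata
Bcl2 site: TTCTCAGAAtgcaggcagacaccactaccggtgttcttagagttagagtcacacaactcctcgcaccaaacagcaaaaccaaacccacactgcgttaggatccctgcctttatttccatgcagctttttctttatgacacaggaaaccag

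These windows lie at chr11:32013697-32013846 (an intron of Nsg2), chr13:33569457-33569606 (in a non-coding gene record, 84.7 kb from the Serpinb9g start), chr1:128611917-128612066 (intergenic, 19.7 kb upstream of Cxcr4) and chr1:106601007-106601156 (an intron of Bcl2). The second set shows members beside Patz1, a zinc-finger factor gene, and beside genes of the T cell programme. These windows hold differing combinations of RUNX, TCF/LEF, GATA and E-box letters, except the Tcrg-C4 window, which holds none of them. Of these windows, only that of Rag2 holds all of these letters.
Patz1 site: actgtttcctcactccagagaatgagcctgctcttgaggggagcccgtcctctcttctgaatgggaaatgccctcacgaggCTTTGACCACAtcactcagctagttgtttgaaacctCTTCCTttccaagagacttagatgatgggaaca
Rag2 site: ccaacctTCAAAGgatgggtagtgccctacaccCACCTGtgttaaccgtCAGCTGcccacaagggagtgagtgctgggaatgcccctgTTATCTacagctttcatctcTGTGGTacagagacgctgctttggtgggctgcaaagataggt
Lef1 site: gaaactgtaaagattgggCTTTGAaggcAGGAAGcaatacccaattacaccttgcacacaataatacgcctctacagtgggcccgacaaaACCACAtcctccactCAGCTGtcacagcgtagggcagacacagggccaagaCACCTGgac
Rasgrp1 site: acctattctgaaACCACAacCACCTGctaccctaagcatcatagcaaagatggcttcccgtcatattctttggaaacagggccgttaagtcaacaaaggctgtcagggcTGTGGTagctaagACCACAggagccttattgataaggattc
Cd3e upstream site: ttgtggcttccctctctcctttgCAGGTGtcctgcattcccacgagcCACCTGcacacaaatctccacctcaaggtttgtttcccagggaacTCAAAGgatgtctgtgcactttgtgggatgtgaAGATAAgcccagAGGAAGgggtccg
Bcl11b site: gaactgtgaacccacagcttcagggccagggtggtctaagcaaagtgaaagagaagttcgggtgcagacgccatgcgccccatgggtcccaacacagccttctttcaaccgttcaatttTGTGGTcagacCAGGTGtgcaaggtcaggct
Tcrg-C4 site: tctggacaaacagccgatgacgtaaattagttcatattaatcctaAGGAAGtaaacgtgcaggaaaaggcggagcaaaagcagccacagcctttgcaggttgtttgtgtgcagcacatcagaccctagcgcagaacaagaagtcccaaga

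These windows lie at chr11:3299217-3299366 (an intron of Patz1), chr2:101551467-101551616 (intergenic), chr3:130947387-130947536 (intergenic), chr2:117399607-117399756 (intergenic), chr9:45011497-45011646 (intergenic), chr12:107926207-107926356 (an intron of Bcl11b) and chr13:19357417-19357566 (intergenic). In the Patz1 window the TCF/LEF and RUNX letters share a base, so that they form an unbroken stretch of capitals. The windows beside Rag2 and Lef1 held matches of 5 of the 7 motifs marked in capitals. The Tcrg-C4 window held only the ETS letters.

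Of the 14 motifs searched, STAT letters had the highest ratio to DHSs outside promoters (3.42, against 1.70 for RUNX), whereas against the members' own flanks the ratio was higher for RUNX (3.86) than for STAT (3.38). In 223 of the 1291 DN2-only DHSs (17.3%, 95% Wilson interval 15.3 to 19.4) the central 150 bp held TTCNNNGAA, against 5.06% of all consensus DHSs outside promoters and 4.79% of all consensus DHSs. The share was 5.11% in windows of the same length 1 kb beside the members, so the letters were concentrated in the open site. A match is a description of the sequence, and no factor binding was measured.

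The STAT share differed between opening patterns that border on the rule. DHSs with a peak in 3 of the 4 DN2 libraries and in no other library (n = 2053) held the letters in 11.3% of cases. Those with a peak in all 4 DN2 libraries and in 1 other library (n = 1475) held them in 7.66%. The DHSs called in both DN1, both DN2a and both DN2b libraries but in no LSK or IgG library (n = 3226) held them in 6.11%, and those called in both DN2b libraries alone (n = 3169) in 10.2%. DHSs called in both DN1 libraries alone (n = 3014), from cultures without IL-7, held the letters in 3.85%, those of the 3 LSK libraries alone (n = 1104) in 3.62% and those of the 3 IgG libraries alone (n = 3213) in 3.89%. The share was thus above that of all DHSs outside promoters in each of these patterns that requires DN2b libraries, and below it where only DN1, LSK or IgG libraries had peaks. It was 2.73% in the DHSs called in both DN2a libraries alone, but this pattern had only 110 DHSs. Among the DHSs called in all 12 libraries, which also require DN2b peaks and were 58.0% promoters, the share was 3.54%. How far IL-7 in the medium or the stage of the cells accounts for these shares cannot be told apart.

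The RUNX letters were found in 44.0% of DN2-only DHSs, against 25.9% of all DHSs outside promoters, 11.4% of the flanking windows and 55.4% of the DHSs shared by DN1 and DN2 cells. TCF/LEF letters were in 24.3% of the members against 12% outside promoters, GATA letters in 17.7% against 9.17%, CACCTG in 22.2% against 13.1%, and CAGCTG in 17.7% against 12%. The share of CACCTG was higher still, 31.3%, in the DHSs called in DN2b alone. The full PU.1 form GAGGAAGT, which contains the ETS letters AGGAAG, was in 22 DN2-only DHSs (1.70%) against 6.36% outside promoters and 18.2% of the DHSs called in both DN1 libraries alone. It was similarly rare, at 1.99%, in the DHSs called in DN2b alone. The share was 4.90% in those shared by DN1 and DN2 cells and 8.18% in the 110 called in both DN2a libraries alone. PU.1 is a myeloid and early lymphoid factor whose gene is switched off as T cells commit.

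Most other letters were about as common in DN2-only DHSs as outside promoters. This was so for ETS (34.7% against 35.9%), MYB as AACTG (33.5% against 34.7%), AP-1 as TGANTCA (8.60% against 8.51%) and the CACGTG E-box of MYC (2.71% against 2.99%). The letters TGGGAA of RBPJ, through which Notch acts on its target genes, were in 13.8% of the members, in 13.1% of DHSs outside promoters and in 14.3% of the flanks. C/EBP letters as TTGCNNAA were less common, in 6.04% of the members (95% Wilson interval 4.87 to 7.48) against 8.52% outside promoters. They were in 41.9% of the DHSs of IgG cultures alone. SP/KLF letters as GGGCGG were in 4.96% against 5.50%. All 14 motifs were searched on both strands, the STAT, ETS, PU.1 and RBPJ letters can share bases, and the shares over all consensus DHSs were 23.1% for RUNX, 11.2% for TCF/LEF, 8.25% for GATA, 12.8% for CACCTG, 11.5% for CAGCTG, 5.70% for PU.1, 33.5% for ETS, 32.7% for MYB, 7.66% for AP-1, 3.42% for CACGTG, 12.8% for RBPJ, 7.91% for C/EBP and 10.6% for SP/KLF.

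RUNX and TCF/LEF letters were both present in 133 members (10.3%), against 3.28% of DHSs outside promoters, and the product of the members' separate shares was 10.7%. RUNX with ETS letters were in 151 members (11.7%) against 9.27%, where the product was 15.3%. These pairs were thus no more frequent in the members than their separate shares give. Of the 7 motifs marked in capitals, at least 3 were present in 286 members (22.2%) and in 8.03% of DHSs outside promoters, and none in 118 members (9.14%) and 27.9%. These 2 shares were 19.2% and 10.2% in the DHSs shared by DN1 and DN2 cells, close to the members. In those called in DN2b alone they were 16.3% and 17.2%.

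**Figure D1:**
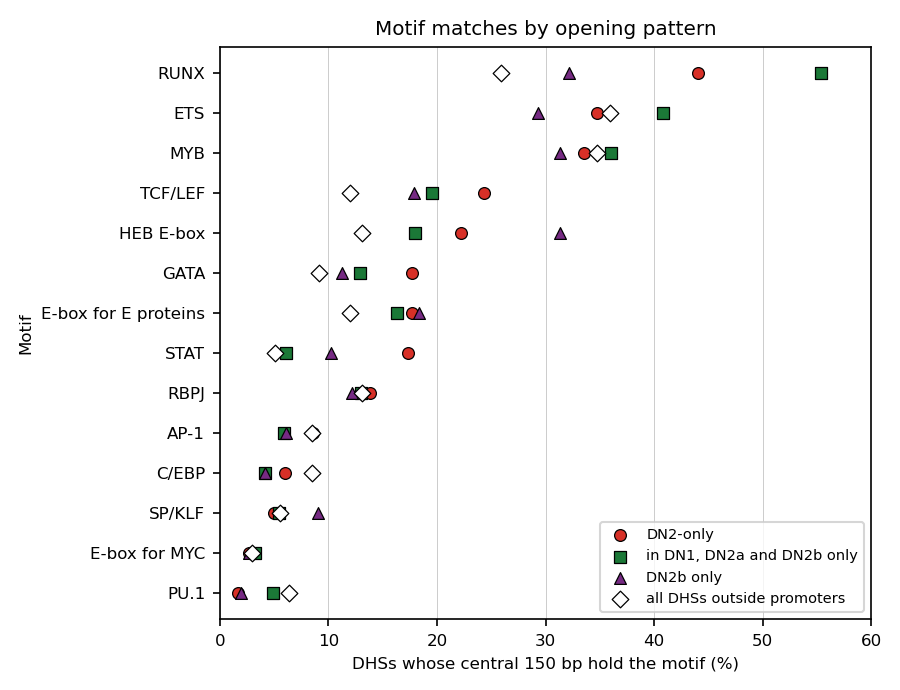
Share of DHSs (x axis, %) whose central 150 bp hold each of 14 motifs (y axis) on either strand, for DN2-only DHSs, DHSs called in all DN1, DN2a and DN2b libraries but no LSK or IgG library, DHSs called in both DN2b libraries alone, and all DHSs outside promoters. STAT letters were in 17.3% of DN2-only DHSs and 5.06% of DHSs outside promoters, whereas RBPJ letters were in 13.8% and 13.1%.

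DN2-only DHSs were mostly distal. Only 62 (4.80%) lay within 1 kb of the start of a protein-coding gene, against 16.5% of all consensus DHSs, 7.28% of the DHSs shared by DN1 and DN2 cells and 58.0% of the 13068 DHSs called in all 12 libraries. Of the 1229 members outside promoters, introns of protein-coding genes held 626 (50.9%) and intergenic DNA 446 (36.3%), near the 48.1% and 38.5% of all DHSs outside promoters. Outside promoters the median distance to a protein-coding start was 33.6 kb over the 1229 members and 30.9 kb over all DHSs. Of these members, 246 lay more than 100 kb from any such start, as did 28349 of the 142190 DHSs outside promoters (19.9%). More than 500 kb away lay 15 of the 1229 members and 2391 of the 142190 DHSs outside promoters. The members were 150 to 550 bp wide with a median of 190 bp, and the GC content was 47.9% in those outside promoters and 48.6% in all DHSs outside promoters.

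Most promoters nearest to the distal members were not themselves confined to DN2 cells. Of the 1229 members outside promoters, 491 (40.0%) had a nearest protein-coding promoter called in all 12 libraries, as did 41.1% of all DHSs outside promoters, and 649 (52.8%, against 53.3%) had one called in every LSK and DN1 library. For 265 members (21.6%, against 24.7%) this promoter was called in none of the 12 libraries. These shares were close to those of all DHSs outside promoters. For 10 members (0.814%) it was called in exactly the 4 DN2 libraries, against 215 of the 142190 DHSs outside promoters (0.151%), and these 10 members shared the promoters of 7 genes, Cd3e, D630039A03Rik, Ifng, Sh2d2a, Tmem217, Tnfsf11 and Tshz2. The nearest gene is a label of position, and no link between a distal site and a gene was measured.

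Within the DN2 libraries, the members were compared by the deposited score, expressed as a percentile of the library's own list because the meaning of the score is not given in the sources used here. In DN2a replicate 1 the median percentile of the members was 43.5 and in DN2a replicate 2 it was 42.3. In DN2b replicate 1 it was 55.9 and in DN2b replicate 2 it was 75. Both DN2b libraries lay above both DN2a libraries, and the 2 DN2b libraries were far apart.

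The mean of the library medians was 42.9 ± 0.858 in DN2a (SD, n = 2) and 65.5 ± 13.5 in DN2b (SD, n = 2), a difference of 22.5 percentile points (two-sided exact permutation test over libraries, p = 0.333, the smallest that 2 against 2 libraries allow). The difference was 13.0 without DN2b replicate 2, which had the longest list (111582 peaks), and 30.4 without DN2b replicate 1. The other 37051 DHSs with a peak in all 4 DN2 libraries had medians of 69.1 in DN2a and 74.1 in DN2b, a difference of 5.07. A list's length enters its percentiles, so the members were also ranked against the DHSs called in all 12 libraries: there the median was 3.10 ± 1.14 in DN2a and 11.6 ± 0.517 in DN2b (SD, n = 2), a difference of 8.48 with the same p = 0.333 of the exact permutation test, against 2.01 for the other DHSs. On that scale the other DHSs also ranked low, with medians of 18.2 in DN2a and 20.2 in DN2b, and the members lay lower. Members lack calls in the other libraries and the reference DHSs were called in all 12. The low rank of the members can therefore follow from the rule and is no separate result. Below the 10th percentile of the DHSs called everywhere lay 80.9% and 70.2% of the members in the DN2a libraries. In the DN2b libraries 46.6% and 45.9% lay there. In such bulk libraries, a site open in more cells and a site more open in each cell cannot be told apart.

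**Figure D2:**
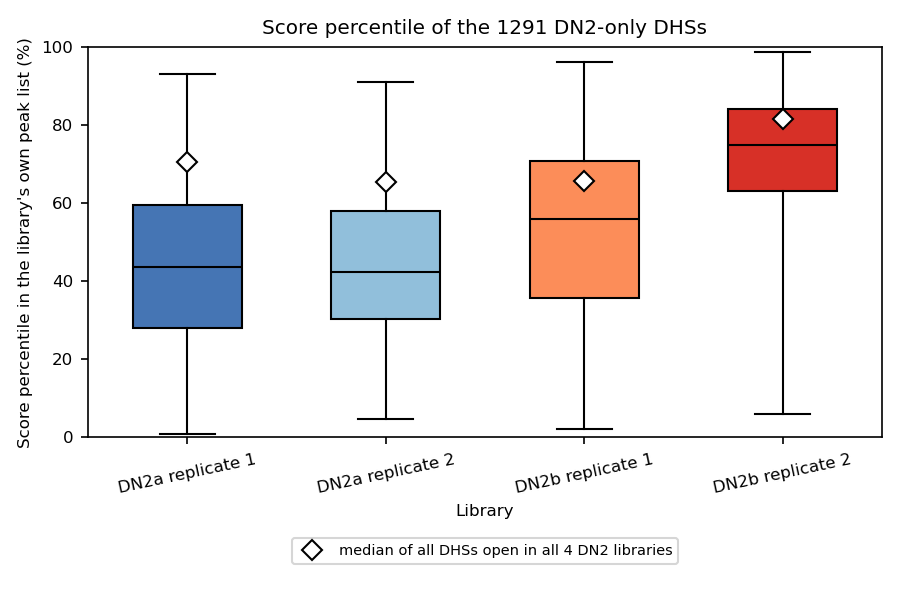
Score percentile (y axis, %) of the 1291 DN2-only DHSs in each of the 4 DN2 libraries (x axis); boxes span the quartiles, lines mark the medians, whiskers reach the lowest and highest member and diamonds mark the median of all DHSs called in all 4 DN2 libraries. The member medians were 43.5 and 42.3 in DN2a and 55.9 and 75 in DN2b, each below the diamond of its library, an order that the rule itself can favour.

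Site by site, 789 members (61.1%) had both DN2b percentiles above both DN2a percentiles. Among all 38342 DHSs with a peak in all 4 DN2 libraries the share was 28.4%. The opposite order was seen in 13 members (1.01%), against a background of 4.22%. Ranked against the DHSs called in all 12 libraries, the 2 counts were 846 (65.5%, background 29.8%) and 42 (3.25%, background 15.6%), and 722 and 8 members respectively were ordered the same way on both scales. The share higher in DN2a moved when a DN2 library was left out. It was 18% without DN2b replicate 2, 4.20% without DN2a replicate 1, 3.70% without DN2a replicate 2 and 1.90% without DN2b replicate 1. Leaving out a DN2 library keeps a single value for its stage, which makes the order easier to meet. The set of members changes as well. With lists cut to equal length the share higher in DN2a was 8.66%, and 48.0% were then higher in DN2b. The background over all DHSs is given here for the full lists only, so these shares cannot be set against one.

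**Figure D3:**
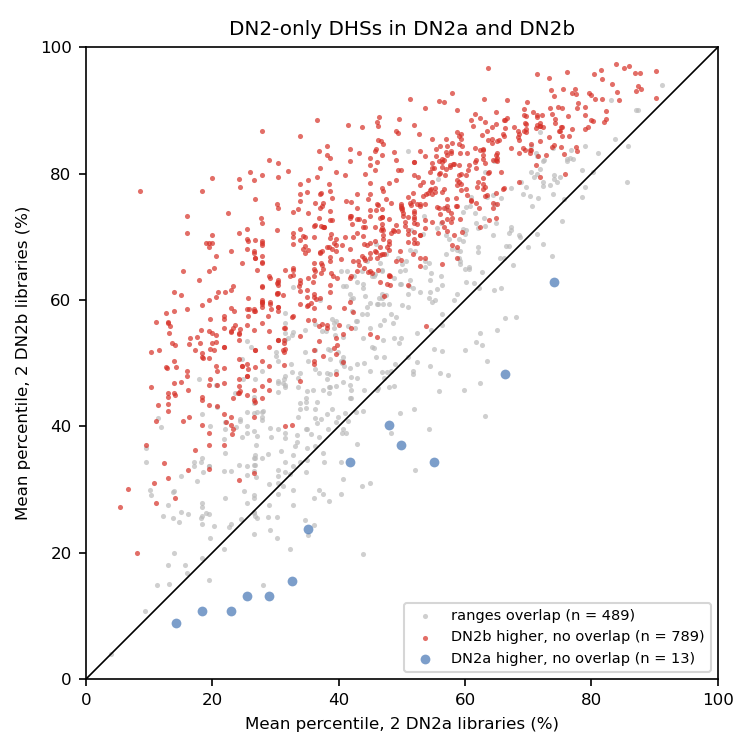
Mean score percentile of each DN2-only DHS in the 2 DN2a libraries (x axis, %) and the 2 DN2b libraries (y axis, %); red points have both DN2b values above both DN2a values, blue points the opposite, grey points overlap, and the line marks equal means. The 789 red points lie above the line and the 13 blue points below it.

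By percentile of each library's own list, differences were ranked among the members whose DN2a and DN2b ranges did not overlap. The 5 largest in favour of DN2b were at distal sites. A site 34.7 kb upstream of Olig3 (chr10:19321777-19321966) was at percentiles 6.11 and 11.0 in the DN2a libraries and 66.8 and 87.8 in the DN2b libraries, a difference of means of 68.7. A site 7.07 kb upstream of Tmprss6 was at 9.65 and 30.2 in DN2a and at 73.6 and 85.0 in DN2b, a difference of 59.4. An intronic site of Tmem178b, which held RUNX, CAGCTG and STAT letters, was at 25.5 and 30.2 against 82.9 and 90.7. The next were near Nlrp12 (58.8 points) and Tspan13 (57.2 points). Ranked against the DHSs called in all 12 libraries, the order was another: the largest differences were at a distal site nearest to Jazf1 (69.4 points) and the promoter site 0.34 kb downstream of the Cd3e start (59.9 points), and the Olig3 and Tmprss6 sites differed by 27.6 and 27.0 points. None of the 5 genes nearest to the sites ranked first by list was in a T lineage list. That no DN2a value reached a DN2b value at these 5 sites was set by their choice.

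The 13 members that were higher in DN2a lay at low or middle percentiles. The widest gap was 20.7 points, at a site 100 kb upstream of Dnajc1, with 59.5 and 50.6 in DN2a against 38.1 and 30.6 in DN2b. A site upstream of Ofcc1 was at 66.1 and 66.5 against 40.5 and 55.9. Sites in introns of Rtkn2 and Rbm6 and upstream of Actr3 differed by between 12.9 and 17.1 points. Of the 13, 0 were promoters and 0 were nearest to a gene of a T lineage list, where the shares of all members were 4.80% and 5.11%, so no difference was detectable with 13 sites.

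The 10 members ranked highest over the 4 DN2 libraries all lay outside promoters, as did 1229 of the 1291 members. Of these 10, 4 held STAT and 5 RUNX letters, beside 17.3% and 44.0% of all members. The first was the intronic site of Nsg2, a gene of a neuronal vesicle protein, at percentiles 89.4 and 91 in DN2a and 95.4 and 96.9 in DN2b. The site 12.9 kb from the start of Tcrg-C4, a constant gene of the T cell receptor gamma locus, was at 92.7 and 89.6 in DN2a and 92.7 and 95.2 in DN2b. For Nsg2 the DN2a and DN2b ranges did not overlap, and for Tcrg-C4 they met.

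The intronic site of Patz1 was at 89.4, 86.0, 94.8 and 96.9 in DN2a replicates 1 and 2 and DN2b replicates 1 and 2. In the same order, the site upstream of Cxcr4, the receptor of the chemokine CXCL12, was at 88.1, 82.1, 95.7 and 97.7. The other 6 of the 10 highest were nearest to Fam169b, Supt4a, Serpinb9g, Fstl4, Gm815 and 2010109I03Rik, with mean percentiles of 90.6 to 91.5. All 10 had a peak within the 32952 highest-scoring peaks of each DN2 library, the length of the shortest list. This follows from their choice by high percentile. At the other end, the 3 lowest mean percentiles were between 3.95 and 11.5, at sites nearest to Adgrl2, Anapc10 and Reep1.

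Among the 62 promoter members, the highest was that of Il2ra. Il2ra encodes CD25, the surface marker by which the DN2 cells were sorted from DN1. Its calling in DN2 libraries alone was set by the rule and is no check of the sort. It lay at chr2:11642717-11642886 and was at 89.4 and 84.7 in DN2a and at 86.9 and 93.0 in DN2b, ranges that overlapped. The higher of the 2 promoter sites of Cd3e, a chain of the T cell receptor complex, was at 68.5 and 74.1 in DN2a and at 92.7 and 98.8 in DN2b. That of Cd3g, another chain, was at 63.6 and 62.5 in DN2a and at 88.4 and 95.2 in DN2b. Both of these sites were higher in DN2b without overlap, as were 61.1% of all members, and the differences were 24.4 and 28.8 points.

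Other promoter members included those of transporter genes. Slc16a5, a monocarboxylate transporter gene, was at 75.4 and 76.8 in DN2a and at 94.5 and 97.7 in DN2b. Slc7a5, which encodes the light chain of a large neutral amino acid transporter, was at 77.0 and 63.9 in DN2a and at 79.7 and 87.8 in DN2b. Its promoter, like those of Nudt8, Dr1 and Rps25, also held a peak in all 12 libraries, so that the DN2-only DHS was an additional peak within an open promoter. The promoters of Il2ra, Slc16a5, Cd3e and Cd3g were called in the 4 DN2 libraries only.

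Genes of the T lineage lists were nearest to 66 members (5.11%, 95% Wilson interval 4.04 to 6.45), against 1.52% of all consensus DHSs, 3.19% of the DHSs shared by DN1 and DN2 cells and 2.62% of the DHSs called in DN2b alone. These 5 lists held 114 genes, of which 33 had a member. Of the 66 members, 49 (74.2%) were higher in DN2b without overlap and 0 in DN2a, beside 61.1% and 1.01% of all members (background 28.4% and 4.22%). Among the lists of other lineages, the innate lymphoid and NK genes had 6 members (0.465%, against 0.227% of all consensus DHSs) and the B lineage genes 3 (0.232% against 0.0999%), of which 1 is the Rag1 site that the recombination list of the T lineage also holds. The stem and progenitor genes had 2 (0.155% against 0.241%), the myeloid genes 1 (0.0775% against 0.116%) and the mast cell and erythroid genes 0 (against 0.0382% and 0.0682%). Within 50 kb of a start of a T lineage gene there were 41 members (3.18%), against 1.31% of all consensus DHSs.

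Transcription factor genes of the T cell list had 25 members around 10 of 25 genes, of which 16 were higher in DN2b and 0 in DN2a. This was close to the 61.1% of all members. An intronic site of Runx3 was at 81.3 and 78.5 in DN2a and at 90.2 and 94.6 in DN2b. A site 5.88 kb upstream of Ikzf1, the Ikaros gene, was at 83.8 and 80.7 in DN2a and at 85.3 and 92.0 in DN2b. A site 365 kb upstream of Runx1 was at 79.3 and 75.9 in DN2a and at 89.4 and 95.8 in DN2b. These 3 were the highest of the list and were all higher in DN2b without overlap.

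Lower in rank were sites beside Lef1, Tox and Tcf12. The site 163 kb upstream of Lef1, a TCF1 relative, was at 9.65 and 42.3 in DN2a and at 68.9 and 91.4 in DN2b, a difference of 54.2. Tox, which encodes an HMG box protein of T cell development, had 4 members with mean percentiles of 32.6 to 55.8. Tcf12, which encodes the E protein HEB, had an intronic member at 30.3 and 42.3 in DN2a against 63.1 and 80.6 in DN2b. The members nearest to Myb, Gfi1 and Ikzf2 had mean percentiles of up to 80.6, 77.3 and 77.0.

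Genes of the T cell receptor complex and its signalling had 31 members around 17 of 46 genes, of which 24 (77.4%) were higher in DN2b and 0 in DN2a, beside 61.1% and 1.01% of all members (background 28.4% and 4.22%). The highest was 56.7 kb upstream of Rasgrp1, which encodes an activator of Ras, at 83.8 and 79.2 in DN2a and at 94.8 and 98.0 in DN2b. The next were the Cd3e and Cd3g promoter sites given above. Cd28 and Ctla4, neighbouring genes of the activating and the inhibitory coreceptor, had 3 members each, and all 6 were higher in DN2b without overlap, as were 61.1% of all members. The Cd28 site at 41.6 kb was at 66.1 and 62.5 in DN2a and at 82.3 and 88.6 in DN2b. The Ctla4 site at 24.0 kb was at 54.9 and 67.7 in DN2a and at 81.0 and 94.0 in DN2b.

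Members beside other signalling genes lay in the middle of the lists. The site nearest to Lat, the scaffold that gathers signalling proteins below the receptor, was at 56.5 and 57.9 in DN2a and at 79.7 and 88.9 in DN2b. A site upstream of Themis, which encodes a thymocyte protein of receptor signalling, was at 23.1 and 68.9 in DN2a and at 74.4 and 89.3 in DN2b. The site upstream of Lcp2, the gene of the adaptor SLP-76, was at 54.9 and 37.6 against 80.3 and 90.4. In these 3 sites the DN2a and DN2b ranges did not overlap, as in the 61.1% of all members that were higher in DN2b.

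Some sites of the same list showed no such order. The site 14.7 kb upstream of Ptprc, the gene of the phosphatase CD45, was at 68.5 and 62.5 in DN2a and at 60.5 and 73.0 in DN2b. The site upstream of Trat1, an adaptor gene, was at 62.3 and 56.2 against 60.5 and 70.8. An intronic site of Skap1 was at 9.65 and 44.5 against 15.3 and 69.3. In each the DN2b libraries spanned the DN2a values or overlapped them.

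Upstream of Thy1, a surface marker of T cells whose promoter was called in the DN2b libraries alone, 2 members were called in DN2a as well. The one 30.5 kb upstream was at 49.3 and 59.5 in DN2a and at 68.9 and 91.4 in DN2b, and the one 9.28 kb upstream was at 47.4 and 63.9 against 64.4 and 76.8.

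The innate lymphoid and NK list had 6 members. Of the 2 intronic sites of Zbtb16, the gene of PLZF, that at 31.5 kb was at 69.6 and 56.2 in DN2a and at 74.4 and 84.2 in DN2b, and that at 16.5 kb was at 76.2 and 61.0 against 54.3 and 86.3. In this list 3 of the 6 members were higher in DN2b without overlap and 0 in DN2a, against 61.1% and 1.01% of all members.

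The recombinase genes Rag1 and Rag2 had 3 members, all higher in DN2b, as were 61.1% of all members. The site 12.2 kb downstream of the Rag1 start was at 59.5 and 68.9 in DN2a and at 82.3 and 87.4 in DN2b. The site 73.2 kb upstream of Rag2, shown above with RUNX, TCF/LEF, GATA and both E-box letters, was at 51.3 and 52.5 in DN2a and at 86.9 and 88.6 in DN2b. The third, 338 kb upstream of Rag2, was at 23.1 and 42.3 against 55.9 and 74.3. The list made up 0.232% of the members and 0.0200% of all consensus DHSs.

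Genes of Notch signalling had 3 members among 19 genes. Both sites nearest to Myc were remote, at 473 and 713 kb from its start, and the latter was at 32.6 and 22.9 in DN2a and at 77.5 and 82.0 in DN2b. An intronic site of Maml3, which encodes a coactivator of the Notch complex, was at 43.5 and 32.6 against 49.0 and 63.2. Another 4 members in introns of Maml3 were nearer to the start of Mgst2 and were counted there. By nearest start, the list made up 0.232% of the members and 0.268% of all consensus DHSs, a similar share.

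Genes of IL-7 and STAT5 signalling had 4 members, at Il2ra and Bcl2, or 0.310% of the members against 0.201% of all consensus DHSs and 0.558% of the DHSs shared by DN1 and DN2 cells. The intronic sites of Bcl2, the survival gene, were all higher in DN2b without overlap, an order that 61.1% of all members had. The site at 107 kb was at 78.6 and 61.0 in DN2a and at 87.5 and 95.2 in DN2b. That at 113 kb, whose central 150 bp begin with the STAT letters, was at 25.5 and 50.6 against 76.8 and 89.3. The promoter member of Il2ra held no STAT letters in its central 150 bp.

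Of the 223 members with STAT letters, 6 were nearest to a gene of the T lineage lists (2.69%), against 60 of the 1068 without them (5.62%), and 5 were promoters (2.24% against 5.34%). STAT letters were in 9.09% of the T lineage members and in 17.3% of all members. They were higher in DN2b without overlap in 149 cases (66.8%), against 640 of the 1068 members without the letters (59.9%). Their median percentiles were 43.5 and 46.5 in DN2a and 60.5 and 77.4 in DN2b, close to the 41.4, 42.3, 54.3 and 74.3 of the others. RUNX letters were present in 96 of the 223.

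**Figure D4:**
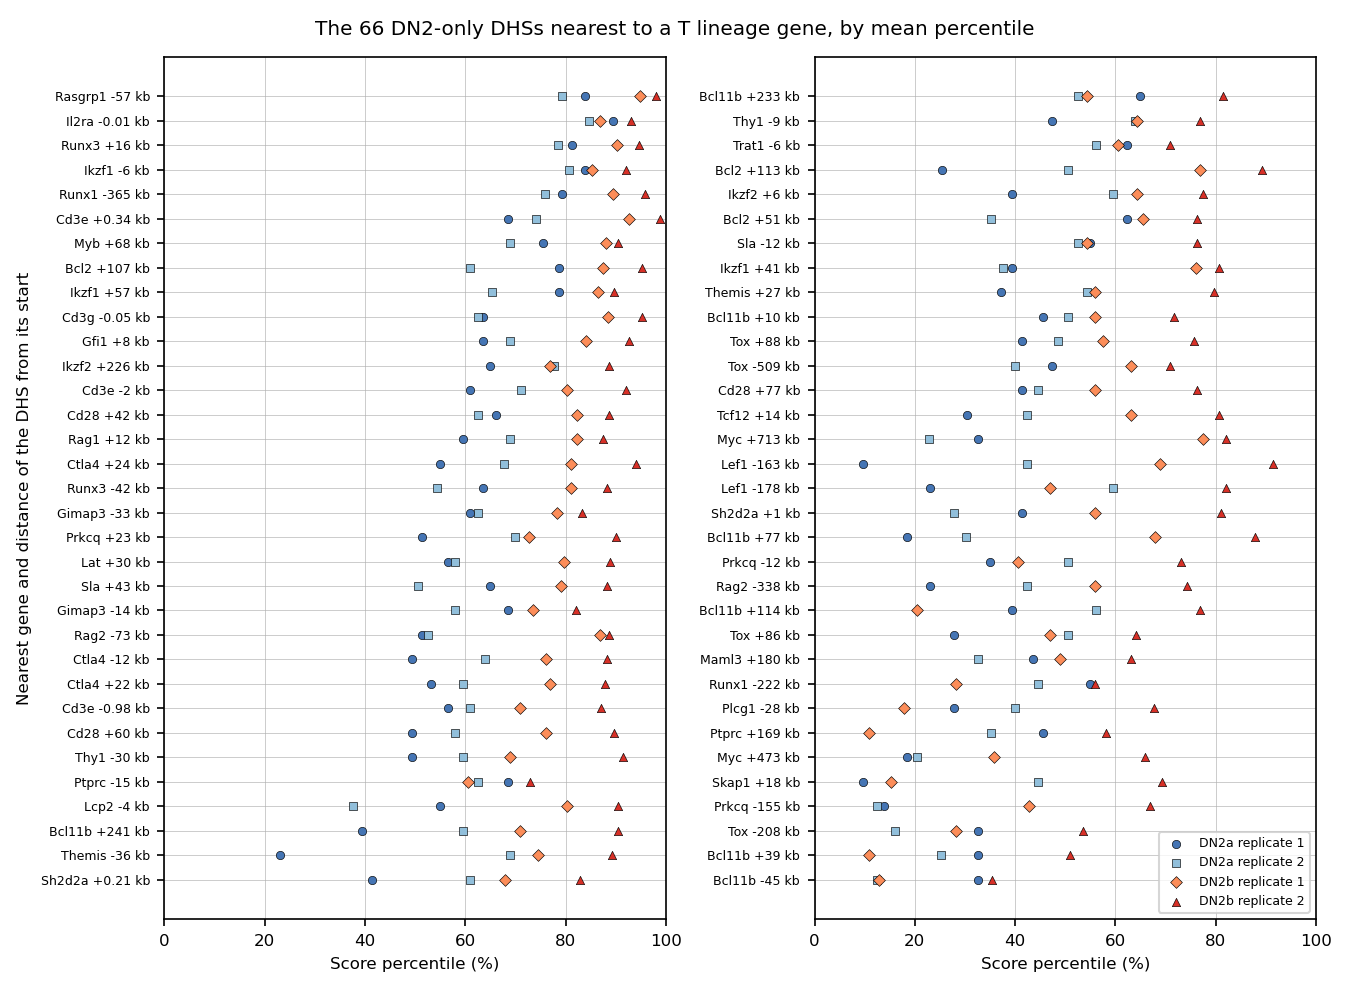
Score percentile (x axis, %) in each of the 4 DN2 libraries for the 66 DN2-only DHSs nearest to a gene of a T lineage list, in order of the mean percentile, with the nearest gene and the distance of the site from its start in kb (y axis). Of these, 49 had both DN2b values above both DN2a values and 0 the opposite, and the site upstream of Rasgrp1 ranked first.

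With a limit of 50 kb between neighbours, 290 members (22.5%) lay in 132 clusters, of which 111 were pairs, 17 had 3 members, 3 had 4 and 1 had 5. The other 1001 stood alone. The clustered share was 33.4% of the DHSs shared by DN1 and DN2 cells and 41.2% of those called in DN2b alone, sets with more sites, and a share of this kind moves with the number of sites. Among genes, 926 were nearest to 1 member, and 2 genes stood apart with 7 and 11 members.

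The fullest cluster was that of the CD3 genes on chromosome 9 (chr9:44954517-45011686, 57.2 kb), with 5 of its 16 DHSs. It held an intronic site of Ube4a, the promoter site of Cd3g, and 3 sites of Cd3e, 0.34 kb downstream and 0.98 and 1.94 kb upstream of its start, of which the first 2 are promoter members by the window of 1 kb. The Ube4a site was at 25.5 and 30.2 in DN2a and at 57.5 and 86.7 in DN2b. The upstream sites of Cd3e were at 56.5 and 61.0 and at 60.9 and 71.1 in DN2a, and at 70.9 and 87.1 and at 80.3 and 92.0 in DN2b. All 5 members of the cluster were higher in DN2b without overlap, beside 61.1% of all members and a background of 28.4%.

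The densest 1-Mb window held Bcl11b and the stretch beyond its 3′ end on chromosome 12, where 17 of 76 DHSs were DN2-only. Bcl11b was nearest to 7 members and 3110018I06Rik, a protein-coding gene record that lies 3′ of it, to 11. Of these 18, 10 (55.6%) were higher in DN2b without overlap and 0 in DN2a, a share near the 61.1% of all members. The Bcl11b promoter itself was called in all LSK, DN1 and DN2 libraries and in no IgG library.

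Around Bcl11b the members differed widely in rank. The intronic site at 77.3 kb was at 18.4 and 30.2 in DN2a and at 67.9 and 87.8 in DN2b. The site at 241 kb was at 39.3 and 59.5 in DN2a and at 70.9 and 90.4 in DN2b, without overlap. The site at 114 kb was at 39.3 and 56.2 in DN2a and at 20.4 and 76.8 in DN2b, so that the DN2b libraries lay on either side of the DN2a libraries. The highest of the 18 were nearest to 3110018I06Rik, 369 and 686 kb on its upstream side, with mean percentiles of 75.6 and 75.5.

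**Figure D5:**
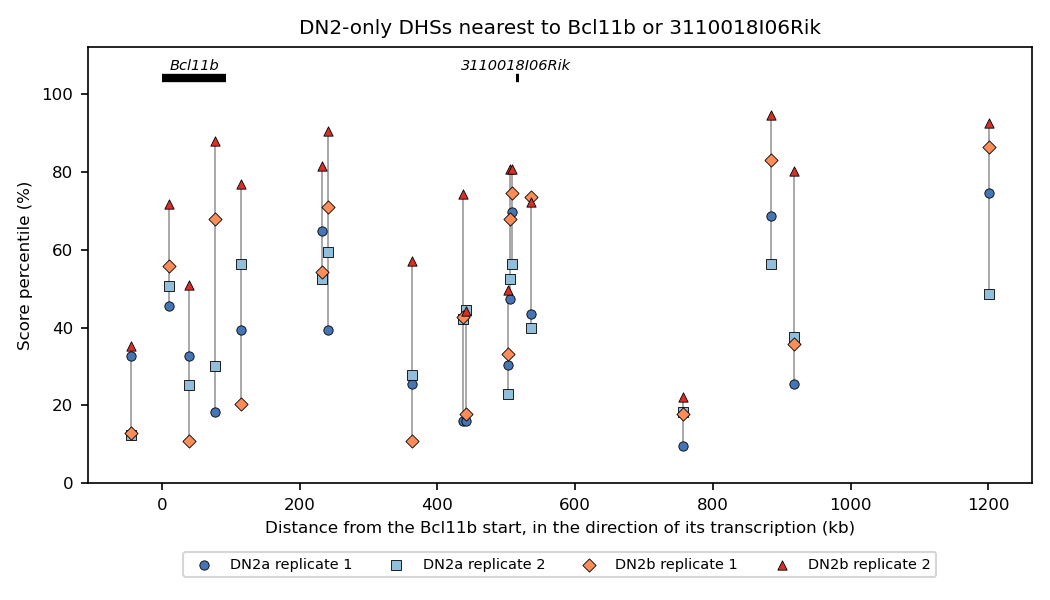
Score percentile (y axis, %) of the 18 DN2-only DHSs nearest to Bcl11b or 3110018I06Rik in each DN2 library, by distance from the Bcl11b start in the direction of its transcription (x axis, kb); vertical lines join the 4 values of a site and black bars mark the genes. DN2b replicate 2 has the highest value at 16 of the 18 sites. It also had the highest median of the 4 libraries over all members (75) and over all DHSs called in all 4 DN2 libraries (81.5). At 77.3 kb both DN2b values (67.9 and 87.8) lie above both DN2a values (18.4 and 30.2).

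Atp10a, Fstl4, Mgst2, Cables1, Ifng and Necab1, which are outside the T lineage lists, had 4 members each. At Fstl4, 3 members lay within 1.49 kb of an intron, and the middle one was at 87.6 and 88.2 in DN2a and at 89.4 and 97.5 in DN2b. Ifng, which encodes interferon gamma, had members at its promoter and 65.3, 93.2 and 158 kb away. In DN2a replicate 1 these were at 20.7 to 39.3 outside the promoter and at 18.4 at the promoter. In DN2a replicate 2 the promoter was at 25.3, above the 20.5 of the site at 93.2 kb and below the 37.6 of the other sites. The DN2b libraries were higher without overlap at 4 of 4 sites of Ifng and of Fstl4, 3 of 4 of Atp10a, 2 of 4 of Cables1 and of Mgst2 and 1 of 4 of Necab1, where 61.1% of all members had this order. The Ifng sites had mean percentiles of 37.6 to 53.4 over the 4 libraries.

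Near Atp10a the members were intergenic and up to 474 kb from the start. The highest, 181 kb upstream, was at 89.0 and 79.2 in DN2a and at 90.2 and 95.5 in DN2b, and the most distant was at 66.1 and 30.2 against 40.5 and 57, ranges that overlapped. The 4 members nearest to the start of Mgst2 lay 70.5 to 201 kb downstream of it. All 4 were in introns of Maml3, the gene of the Notch coactivator, and had mean percentiles of 26.3 to 79.2. Clusters of 3 members also lay at Csk (13.3 kb), Tcrg-C4 (14.3 kb), Serpinb9g with Serpinb6d (14.6 kb), Cd28 and Ctla4 (35.8 kb each).

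DN2-only DHSs lay nearer to DHSs of the adjoining patterns than other DHSs did. Of the members, 31.0% had a DHS shared by DN1 and DN2 cells within 50 kb and 31.9% had one called in DN2b alone, against 22.5% and 21.6% of all DHSs outside promoters. For the DHSs called in all 12 libraries, the shares were 53.8% and 52.9%. By chromosome, the largest excess was on chromosome 12, with 77 members (5.96%) against 4.24% of all consensus DHSs. Of these 77, 18 were the sites nearest to Bcl11b or 3110018I06Rik given above. Chromosome 8 had 45 members (3.49%) against 4.81%.

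In the antigen receptor loci, taken with a margin of 20 kb, members were counted against the DHSs there and read beside the 0.758% of all consensus DHSs. In the T cell receptor loci they were 3 of 153 DHSs in the alpha and delta locus (1.96%), 4 of 90 in the beta locus (4.44%) and 3 of 55 in the gamma locus (5.45%). In the immunoglobulin loci they were 3 of 220 for the heavy chain (1.36%) and 0 of 34 and 0 of 3 for the light chains. These counts are small and were not tested. In the gamma locus, 2 of the 3 lay 12.3 and 12.9 kb from the Tcrg-C4 start, and the third lay 1.17 kb upstream of it, at 83.8 and 74.1 in DN2a and at 73.6 and 82.0 in DN2b. In the beta locus, a site 0.98 kb from Trbj2-7 was at 80.0 and 61.0 in DN2a and at 79.7 and 88.9 in DN2b. By percentile of each library's own list, the DN2a and DN2b ranges met or overlapped at the 3 gamma sites and at the Trbj2-7 and Trbv19 sites. The Trbv12-1 site, at 71.6 and 79.2 against 88.0 and 92.7, and the Trbv5 site, at 43.5 and 70.0 against 77.5 and 82.0, were higher in DN2b. Ranked against the DHSs called in all 12 libraries, the Trbj2-7 and Trbv12-1 sites were higher in DN2b, the Tcrg-C4 site at 1.17 kb was higher in DN2a, and the Trbv5 ranges overlapped.

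Cell type markers were read from the promoters within 1 kb. Of 7 DN2 markers, 4 were called in each DN2a library, 5 and 6 in the DN2b libraries, 3 in each DN1 library and 2 in each LSK and IgG library. The Il2ra promoter is a member, so its call in DN2 libraries alone was set by the rule. Of the others, Kit and Cd44 were called in all 12 libraries and Tcf7 in all DN1 and DN2 libraries. Thy1 was called in the 2 DN2b libraries alone, Gata3 in DN2b replicate 2 alone and Notch1 in none. Of 6 T cell markers, 5 were called in each DN2 library and 3 in each DN1 library. In the LSK libraries 1 to 2 were called and in the IgG libraries 0. The 2 called in DN2 but not in DN1 libraries were the members Cd3e and Cd3g, and Ptcra was called in no library. Markers of other cells were also called in the DN2 libraries: 1 of 4 B cell, 2 to 3 of 6 myeloid, 2 of 4 mast cell, 1 of 4 erythroid and 2 to 4 of 5 NK cell genes, with Pax5, Cd79a, Fcer1a, Ms4a2 and Gata1 at 0. Called in all 4 DN2 libraries were Ebf1, Itgam, Lyz2, Cpa3, Mcpt8, Epor, Klrb1c and Klrd1. The part of these other cells in the results was not tested.

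Membership turned on 2 libraries in particular. Without DN1 replicate 1, whose list of 96436 peaks was the longest outside DN2b, 2434 DHSs met the rule, because 1143 had a peak there and in no other of the 8 libraries. Without DN2a replicate 2, which had the shortest DN2 list, 2457 met it. The members had median percentiles of 43.5, 42.3, 55.9 and 75 in the DN2 libraries, those with a peak in only 3 of the 4 had 25.5, 27.8, 35.7 and 57, and those with 1 further library had 49.3, 46.5, 54.3 and 73.7. When every list was cut to the 32952 highest scores, 1524 DHSs met the rule, and 358 of the 1291 members (27.7%) were among them. Of the 66 members nearest to T lineage genes, 29 had a peak within that length in each DN2 library, and 69 of the 223 with STAT letters did. At equal lengths, over the 1516 consensus DHSs that then met the rule without new merging, the share with STAT letters was 12.5%, against 4.91% of the DHSs outside promoters in the same shortened lists. Without DN1 replicate 1 it was 12.5% against 5.20% in the remaining lists.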

How the data were processed

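Per the study's methods, reads were aligned to mm10 with BWA 0.7.12, and the authors obtained peaks from hotspot2 with a false discovery rate limit of 0.05. There is 1 list per library, and the methods do not say whether replicates were pooled in calling. The deposited lists give positions and a score, a whole number from 1 to 150 whose meaning is not given in the sources used here, so scores were used only as mid-rank percentiles of the library's own list or of the DHSs called in all 12 libraries, taking the highest peak of a DHS. Depth is unknown, and the number of peaks per list stood in for it. Intervals cover counting only.

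Groups were taken from the labels. DN1, DN2a and DN2b cells were sorted from each LSK isolate, so libraries may share an isolate, and which do is not stated; p-values measure only the spread between these libraries. Positions follow GENCODE release M21 of GRCm38, whose chromosome lengths fitted all peaks; the study used another release. Nearest genes were protein-coding or receptor gene records, promoters reached 1 kb and clusters 50 kb. The members, gene lists and motifs were chosen with earlier results of these data known. The sites named were the 10 highest and 3 lowest mean percentiles, the 10 highest promoters and the 5 widest differences each way. These differences were taken among members whose DN2a and DN2b ranges did not overlap. Also named were the 10 genes with most members, the 5 fullest clusters and the highest members of each T lineage list. Others were chosen after their values were seen. Python 3.11.15, pandas 2.3.3, numpy 2.4.6 and scipy 1.17.1 were used, and the steps were tested on simulated data. Alternatives were list length, threshold, merging, windows, ranking and leaving out each library. Some items of the lists are not reported here.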

Additional observations from a re-analysis of the deposited data

How the results depend on the processing

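The exact permutation test cannot go below p = 0.333 with 2 against 2 libraries, so values are compared here and not calls. Leaving out each library in turn gave 1297 to 2457 DN2-only DHSs, promoter shares of 4.92% to 6.82%, DN2b minus DN2a differences of 13.0 to 30.4 percentile points, shares higher in DN2b of 54.6% to 91.2% and in DN2a of 0.972% to 18%, clustered shares of 22.4% to 33.3% and T lineage shares of 4.11% to 5.17%. With lists of equal length the promoter share was 6.76%, the share higher in DN2b 48.0%, that higher in DN2a 8.66% and the clustered share 31.5%; with the upper 50% of each list, the promoter share was 7.82% and the clustered share 29.5%. Of the members, 358 were also members at equal lengths and 350 in the upper 50%, so most members depend on how long a list is taken. Both merging alternatives left every value within its counting interval or within 1.5 times the count. Allowing 1 of the other 8 libraries gave 2766 DHSs and asking for at least 3 of the 4 DN2 libraries gave 3344. The promoter share was 2.87% with a 500 bp window, 10.3% with 2.5 kb and 7.98% with every protein-coding transcript start. Ranked among the DHSs called in all 12 libraries, 65.5% were higher in DN2b and 3.25% in DN2a (background 29.8% and 15.6%). For shortened lists and left-out libraries no background of these shares is given. A cluster limit of 25 kb gave 14.7% and one of 100 kb 31.6%, and 3.18% (1.31% of all consensus DHSs) lay within 50 kb of a T lineage start. The difference between DN2b and DN2a was above 0 under every alternative run. Motif shares at equal lengths and without single libraries were added after seeing the data; the STAT share ranged from 12.5% to 17.3% there and was 27.0% in 300 bp windows, against 10.2% outside promoters. No paired analysis was possible because the labels give no replicate numbers that link libraries.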
